A study of Mus musculus with 8 samples.

Results

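A list of 50 genes that take a cell into, through and out of mitosis was followed in undifferentiated spermatogonia (A_undiff) during recovery of the male germline from busulfan. The genes had been picked by name for their roles, as mitotic cyclins, mitotic kinases, kinetochore and spindle checkpoint proteins, activators of the anaphase-promoting complex, spindle factors and condensin subunits, with kinesins other than Cenpe left out. The list, and the pairs and other lists used below, were chosen with earlier results of these data known. Counts and ratios over them are therefore no independent test. Of the 50, 49 were among the 14608 genes of the count table. The exception was Sgol1, the shugoshin that guards centromeric cohesion, which the table lists under its current symbol Sgo1.

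RNA-seq was performed on A_undiff sorted from testes of adult C57BL/6J mice of 6 to 8 weeks, as cells with E-cadherin and CD49f (α6-integrin) on the surface and without c-KIT. The BU group had received 1 dose of busulfan at 10 mg/kg and was taken at day 10. Busulfan is a DNA-alkylating drug that kills both undifferentiated and differentiating spermatogonia. The CTRL group was left untreated, so that an injection of vehicle alone was not part of the comparison, and both groups were wild type. Each group had 4 libraries, and the methods describe as many mice. The labels do not tie a library to an animal, so the p-values speak of variation among these libraries. The BU libraries are called BU 2 to BU 5 here, after their columns. Every sort is a mixed pool, in which more cells in division and more RNA of a gene per cell cannot be told apart.

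Mitosis is driven by Cdk1 bound to A- and B-type cyclins, which Cdc25 phosphatases switch on and which Polo-like and Aurora kinases assist. Kinetochores, built on centromeres, hold the spindle microtubules, and unattached kinetochores keep the spindle checkpoint active, which restrains the activator Cdc20 of the anaphase-promoting complex. Once Cdc20 is released, securin and the B cyclins are destroyed, separase cuts cohesin, and the sister chromatids part. In the adult testis, A_undiff include the spermatogonial stem cells, and after loss of germ cells the survivors divide to refill the pool.

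Many of these genes are known to share a short promoter element, the cell cycle genes homology region (CHR), to which the MuvB complex binds, often next to CCAAT boxes bound by NF-Y. The promoters of 42 of the 49 genes were found in RefSeq on build GRCm38.p6, as 250 bases before to 50 after the start. Ccna2, Cdc25c, Aurkb, Incenp, Spc24, Tpx2 and Smc4 were not matched. The 150 bases just before the start are printed for 5 genes with higher levels in BU by adjusted p and for Espl1 and Ncapg, which did not pass, so that promoters of both kinds can be read side by side. Capitals mark each CHR, as TTTGAA or TTCGAA on either strand (TTCAAA is the first of them read on the other strand).
Mki67: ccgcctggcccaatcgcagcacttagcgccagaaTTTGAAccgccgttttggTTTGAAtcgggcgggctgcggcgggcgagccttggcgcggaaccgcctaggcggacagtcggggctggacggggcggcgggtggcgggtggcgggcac
Top2a: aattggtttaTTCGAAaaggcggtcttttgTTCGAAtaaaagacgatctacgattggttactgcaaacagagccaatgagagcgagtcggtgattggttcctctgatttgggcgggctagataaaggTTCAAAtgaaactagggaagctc
Ube2c: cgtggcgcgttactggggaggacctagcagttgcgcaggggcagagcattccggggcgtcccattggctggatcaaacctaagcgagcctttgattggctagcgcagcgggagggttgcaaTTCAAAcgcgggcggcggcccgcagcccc
Cdk1: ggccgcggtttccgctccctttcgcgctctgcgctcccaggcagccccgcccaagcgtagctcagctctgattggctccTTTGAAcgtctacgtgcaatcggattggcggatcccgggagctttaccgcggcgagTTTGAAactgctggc
Cdc20: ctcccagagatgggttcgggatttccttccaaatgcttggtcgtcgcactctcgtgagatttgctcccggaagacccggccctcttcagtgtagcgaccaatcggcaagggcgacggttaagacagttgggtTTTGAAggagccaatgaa
Espl1: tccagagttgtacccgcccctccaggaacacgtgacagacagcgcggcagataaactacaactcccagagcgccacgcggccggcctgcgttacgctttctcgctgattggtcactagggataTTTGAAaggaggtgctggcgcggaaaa
Ncapg: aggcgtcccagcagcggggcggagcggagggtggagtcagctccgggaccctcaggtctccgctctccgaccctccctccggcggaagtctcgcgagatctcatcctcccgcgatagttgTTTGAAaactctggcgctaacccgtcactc
These stretches lie at chr7:135716380-135716529 (minus strand) for Mki67, chr11:99024190-99024339 (minus strand) for Top2a, chr2:164769779-164769928 (plus strand) for Ube2c, chr10:69352913-69353062 (minus strand) for Cdk1, chr4:118437344-118437493 (minus strand) for Cdc20, chr15:102296143-102296292 (plus strand) for Espl1 and chr5:45669775-45669924 (plus strand) for Ncapg, and each is printed 5′ to 3′ on the strand of its gene.

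A CHR stood in 31 of the 42 promoters of the list (73.8%), against 19.2% of all 32851 promoters of this length in the RefSeq table and 16.3% of the 10050 that belong to genes in the count table. The CCAAT box (CCAAT, both strands) was found in 32 of 42 (76.2%), against 37.4% of all promoters and 43.7% of those of table genes, and the E2F-type motif GGCGGGA (both strands) in 12 of 42 (28.6%), against 11.3% and 24.3%. A CHR together with a CCAAT box stood in 27 of 42 (64.3%), against 7.52% of all promoters. None of the searched motifs contains another. Within the list, the CHR was found at like shares in genes with larger and smaller differences between the groups. It was present in 5 of the 7 matched genes that passed both thresholds, in 14 of the 19 that were higher by adjusted p alone and in 12 of the 16 others. A match of letters is a description of the promoter and was not tested as a binding site.

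Sequencing gave 17181963 to 24243985 counts in the BU libraries and 18152779 to 23875108 counts in the CTRL libraries. Mitochondrial genes took 42.04 to 45.6% of the counts in BU and 39.8 to 43.5% in CTRL. By chi-square of the counts per degree of freedom, BU 3 stood furthest from the other libraries of its group, at 31.2 to 36.3. That measure grows with depth, and BU 3 had the most counts. By the correlation of log2 CPM, BU 2 and BU 3 were about equally far, each with r of 0.977 to 0.983 to the others. The sort marker Cdh1 (E-cadherin) had 24.6 CPM in BU, against 25.00 CPM in CTRL, and Itga6 (CD49f) had 129.9 CPM in BU, against 108 CPM in CTRL, whereas Kit, the receptor absent from the surface of the sorted cells, had 88.6 CPM in BU, against 16.7 CPM in CTRL (log2 fold change 2.42, SE 0.13, adjusted p = 8.02e-10). Levels are given as CPM, the counts of a gene relative to the TMM-scaled total of its library, in the order BU 2, BU 3, BU 4, BU 5 and CTRL 1, CTRL 2, CTRL 3, CTRL 4. A gene was called higher or lower in BU where limma-voom gave a fold change over 1.5 together with a p under 0.05 after Benjamini-Hochberg adjustment across the 14608 genes.

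Mitotic genes were more abundant in BU than in CTRL A_undiff as a group, by a modest amount and with clear exceptions. The summed level of the 49 genes was 5784, 5529, 5492 and 5922 CPM in BU, against 4345, 4204, 4216 and 4270.0 CPM in CTRL, with no overlap between the groups. Without Mki67 and Top2a, the other 47 still summed to 4090 to 4351 CPM in BU and 3420 to 3564 CPM in CTRL. In all, 9 genes were called higher and 0 lower by limma-voom, and edgeR and DESeq2 gave the same 2 counts. At an unadjusted p under 0.05, 32 were higher and 3 lower, a threshold at which no share over all genes was computed. The 9 were Mki67, Ccna2, Top2a, Tpx2, Cdc25b, Ube2c, Plk1, Ccnb1 and Birc5, with fold changes of 1.56 to 1.97.

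The 9 calls are 18.4% of the 49 genes, against 6.8% of all genes called higher, 6.54% called lower and 13.3% in either direction. By adjusted p alone, 31 of the 49 were higher (63.3%) and 2 lower, Cdc25c and Bub3, against 15.2% and 16.9% of all genes. The median SE of the list was 0.08 on the log2 scale and that of all genes 0.13, so a smaller difference was enough to pass for genes of the list. In 29 of the 49 (59.2%) every BU library lay above every CTRL library, which held for 14.5% of all genes, and in 1, Cdc25c, every BU library lay below, against 15.9% of all genes. The median log2 fold change was 0.35 (1.27-fold), and over all genes it was -0.01. The sign was positive in 43 of the 49 and negative in 6, while 49.2% of all genes had a positive sign. The shares of all genes, 6.8% called higher and 15.2% higher by adjusted p, also stand beside the counts of each role group below. Since the list was chosen with earlier results of these data known, these shares are a description.

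**Figure D1:**
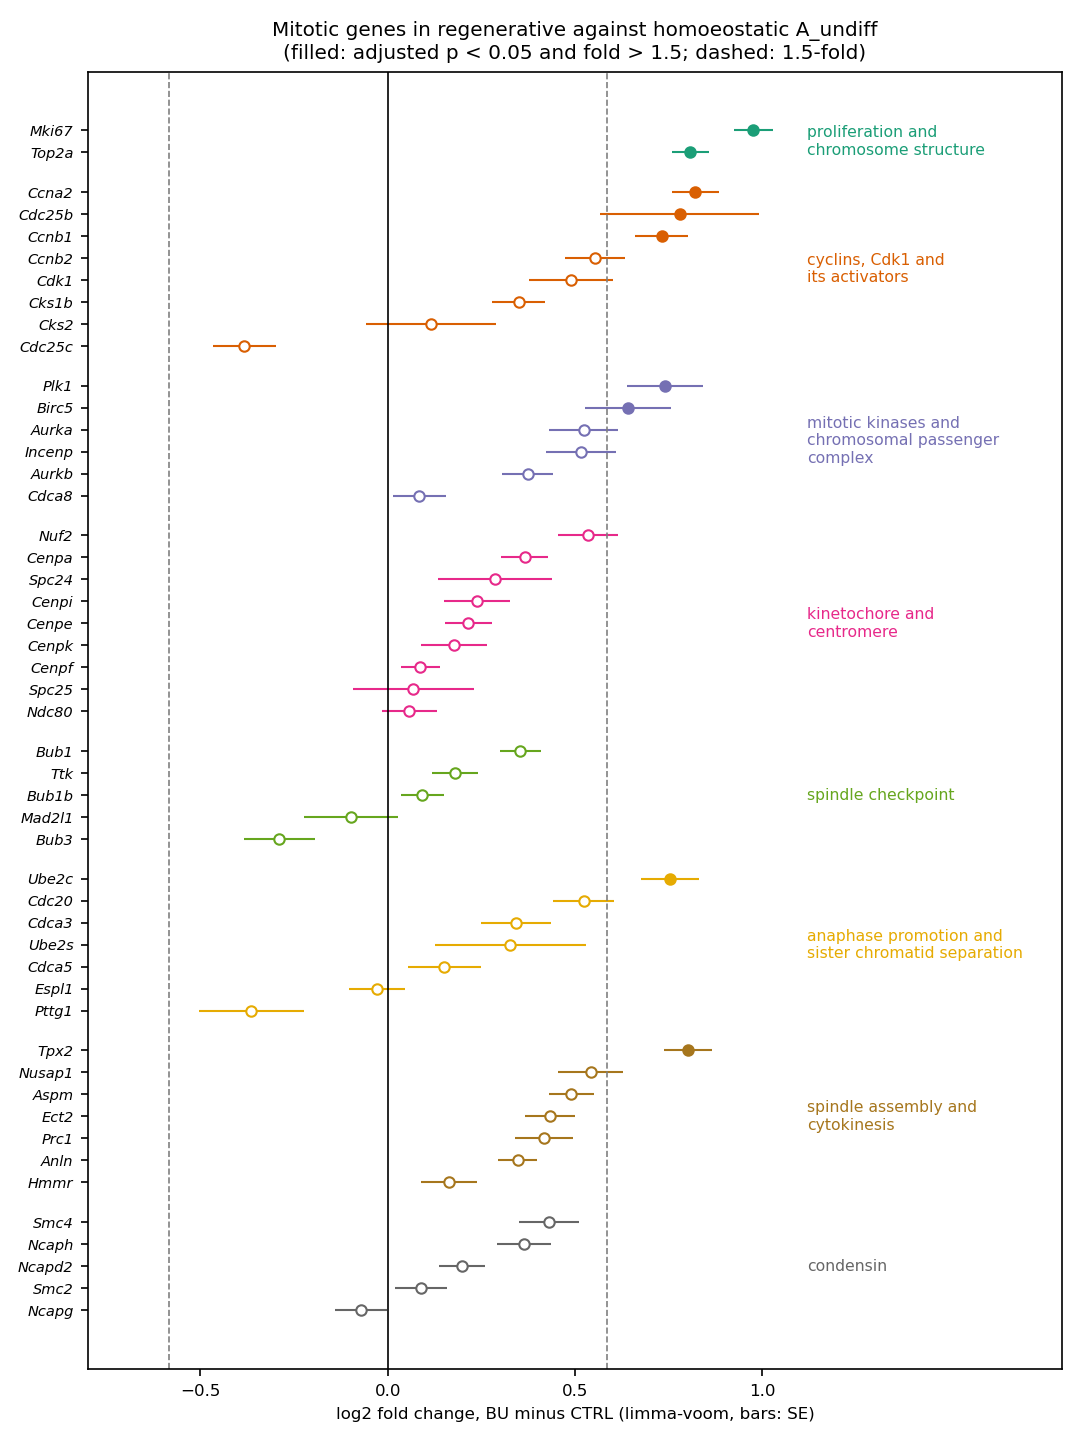
Log2 fold change of BU over CTRL for the 49 mitotic genes (x axis, bars are the SE of limma-voom), grouped by role down the page. Filled points are the 9 genes called higher, dashed lines mark 1.5-fold, and only Cdc25c, Pttg1, Bub3, Mad2l1, Ncapg and Espl1 lie left of 0.

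The 2 genes most used to count dividing cells, Mki67 and Top2a, were both called higher, and Mki67 had the largest fold change of the list. Mki67 encodes Ki-67, which coats mitotic chromosomes and is absent from resting cells. It was at 956, 899, 942 and 1071 CPM in BU, against 499.8, 502, 473 and 484 CPM in CTRL. The level in BU was 1.97-fold that in CTRL (log2 fold change 0.98, SE 0.05, adjusted p = 8.02e-10, 95% interval 0.88 to 1.08), and the groups were far apart relative to the spread within each. Top2a, the topoisomerase that untangles replicated DNA, was at 476, 486, 459.7 and 512 CPM in BU, against 281, 282, 261 and 279.7 CPM in CTRL. It was 1.75-fold higher in BU (log2 fold change 0.81, SE 0.05, adjusted p = 3.74e-09), also with no overlap. Per gene length, Mki67 had the highest level of the list, at 96.1 RPKM in BU and 48.7 RPKM in CTRL, and the least abundant gene in CTRL was Ube2s at 0.873 RPKM in BU and 0.707 RPKM in CTRL. Over the 49 genes, which share the same libraries, the Spearman rho of the log2 fold change was 0.01 with the CTRL RPKM and -0.07 with gene length.

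Among the cyclins, Cdk1 and its activators, 3 of 8 were called higher and 6 were higher by adjusted p, with a median log2 fold change of 0.52. Ccna2, the cyclin of S and G2 phase, was at 136, 142, 128 and 130.3 CPM in BU, against 83.8, 72.6, 74.7 and 73.5 CPM in CTRL, and was 1.77-fold higher in BU (log2 fold change 0.82, SE 0.06, adjusted p = 4.96e-08). Ccnb1, the main B cyclin of mitotic entry, was at 63.4, 62.2, 58.7 and 66.4 CPM in BU, against 35.99, 37.7, 37.9 and 38.9 CPM in CTRL (log2 fold change 0.73, SE 0.07, adjusted p = 5.99e-07). In both genes all BU libraries exceeded all CTRL libraries. Reads of Ccnb1 could be divided with processed pseudogenes that match it at 95% identity or more, of which Ccnb1-ps had 13.6 CPM in BU, against 8.31 CPM in CTRL and was itself called higher (log2 fold change 0.72, SE 0.12, adjusted p = 2.41e-04), and Gm12856 was not called (log2 fold change 0.34, SE 0.22, adjusted p = 0.253). Of the Ccna2 exons, 12.5% of the bases overlap Exosc9 on the opposite strand, and the strand setting of the counting was not given in the sources used here.

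Cdk1, the kinase itself, was at 28.6, 20.7, 24.8 and 27.2 CPM in BU, against 16.5, 19.9, 18.1 and 16.5 CPM in CTRL, so the lowest BU library, BU 3, lay just above the highest CTRL library. It passed the adjusted p but not the fold threshold (log2 fold change 0.49, SE 0.11, adjusted p = 0.00284), and without BU 3 it was called, at a log2 fold change of 0.60. Ccnb2, the B cyclin of the Golgi, likewise passed the adjusted p alone (log2 fold change 0.55, SE 0.08, adjusted p = 4.43e-05), and was called without BU 4 at 0.59. Of the Cks subunits, which help Cdk1 hold its substrates, Cks1b was higher by adjusted p at 1.27-fold (log2 fold change 0.35, SE 0.07, adjusted p = 0.00103). Cks2 was at 9.21, 6.42, 7.37 and 8.02 CPM in BU, against 7.99, 8.93, 6.59 and 5.33 CPM in CTRL, with overlapping groups (log2 fold change 0.12, SE 0.17, adjusted p = 0.654). It shares stretches of at least 95% identity with the pseudogene Gm15452, which had 4.47 CPM in BU, against 4.94 CPM in CTRL.

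The 2 Cdc25 phosphatases differed in direction. Cdc25b, which starts Cdk1 activation at the centrosome, was a low-abundance gene at 4.89, 4.55, 3.87 and 4.62 CPM in BU, against 3.09, 2.50, 3.13 and 1.88 CPM in CTRL, and was called higher (log2 fold change 0.78, SE 0.21, adjusted p = 0.00922, 95% interval 0.36 to 1.19). Cdc25c, which amplifies Cdk1 activation, was at 22.5, 21.1, 20.7 and 21.3 CPM in BU, against 29.7, 27.9, 27.5 and 26.6 CPM in CTRL. All 4 BU libraries were below all 4 CTRL libraries, the only such gene of the list, and it passed the adjusted p but not the fold threshold (log2 fold change -0.38, SE 0.08, adjusted p = 0.00197, 95% interval -0.55 to -0.22). Of the 4919 exonic bases of Cdc25c in GENCODE M21, 12.7% overlap Gm3550 on the opposite strand. The counted gene had a length of 1941 bases, and the share within it was not computed.

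**Figure D2:**
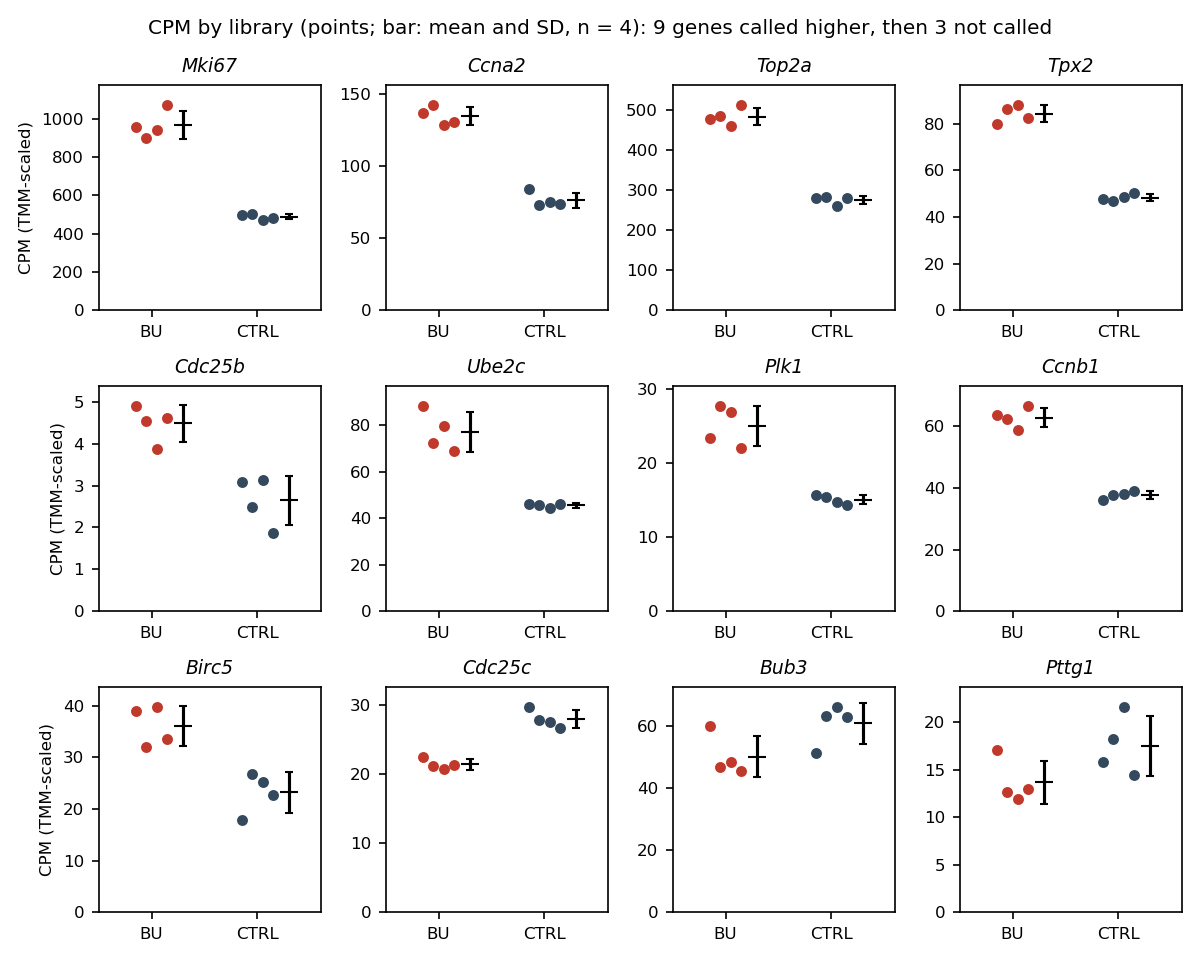
CPM in each library (points, y axis from 0) for the 9 genes called higher and for Cdc25c, Bub3 and Pttg1, with BU left of CTRL and the mean and SD of 4 libraries beside the points. The groups do not overlap in any of the 9 or in Cdc25c, whereas they do in Bub3 and Pttg1.

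Of the mitotic kinases and the chromosomal passenger complex, 2 of 6 were called higher and 5 were higher by adjusted p, with a median log2 fold change of 0.52. Plk1, the Polo-like kinase that promotes entry into mitosis and centrosome maturation, was at 23.3, 27.7, 26.9 and 22.1 CPM in BU, against 15.7, 15.5, 14.7 and 14.3 CPM in CTRL. It was 1.67-fold higher in BU (log2 fold change 0.74, SE 0.10, adjusted p = 2.92e-05). Birc5 encodes survivin, the subunit that brings Aurora B to centromeres, and was at 39.04, 32.1, 39.8 and 33.5 CPM in BU, against 17.9, 26.8, 25.3 and 22.8 CPM in CTRL (log2 fold change 0.64, SE 0.11, adjusted p = 3.58e-04). CTRL 1 was the lowest library for Birc5, and without it the gene was no longer called, at a log2 fold change of 0.53.

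Aurka, the Aurora kinase of centrosomes and spindle poles, was at 24.8, 21.9, 23.6 and 21.9 CPM in BU, against 15.5, 16.7, 16.4 and 15.4 CPM in CTRL, without overlap and just under the fold threshold (log2 fold change 0.52, SE 0.09, adjusted p = 3.28e-04). Aurkb, the kinase of the passenger complex, and Incenp, its scaffold, were higher by adjusted p at 1.30-fold (log2 fold change 0.37, SE 0.07, adjusted p = 4.30e-04) and 1.43-fold (log2 fold change 0.51, SE 0.09, adjusted p = 4.18e-04). The fourth subunit, Cdca8 (borealin), was at 68.1, 65.2, 63.3 and 58.2 CPM in BU, against 60.3, 64.5, 59.99 and 56.3 CPM in CTRL, and the groups overlapped (log2 fold change 0.08, SE 0.07, adjusted p = 0.389). These 4 subunits of 1 complex had log2 fold changes from 0.08 to 0.64.

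Spindle assembly and cytokinesis genes all had positive signs, with 6 of 7 higher by adjusted p, 1 of them called, and a median log2 fold change of 0.43. Tpx2, which activates Aurora A on spindle microtubules, was at 79.97, 86.2, 87.9 and 82.4 CPM in BU, against 47.5, 46.8, 48.4 and 50.3 CPM in CTRL. It was 1.74-fold higher in BU (log2 fold change 0.80, SE 0.06, adjusted p = 7.38e-08), and the groups were well apart. Aspm, which focuses spindle poles, was at 267, 235, 251 and 284 CPM in BU, against 178, 179, 184 and 192 CPM in CTRL, also without overlap but below 1.5-fold (log2 fold change 0.49, SE 0.06, adjusted p = 8.97e-06). Nusap1, a microtubule bundler, was at 1.46-fold (log2 fold change 0.54, SE 0.09, adjusted p = 1.35e-04), and was called without BU 4 or without CTRL 1, each time at a log2 fold change of 0.59. Prc1 and Ect2, of the central spindle, and Anln (anillin), of the contractile ring, had log2 fold changes of 0.42, 0.43 and 0.35, with adjusted p of 4.89e-04, 1.01e-04 and 8.25e-05. Hmmr, a spindle-associated protein, was at 83.5, 74.03, 82.8 and 87.2 CPM in BU, against 74.2, 64.1, 74.04 and 78.3 CPM in CTRL, and did not pass (log2 fold change 0.16, SE 0.07, adjusted p = 0.104).

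Genes of the anaphase-promoting complex and of chromatid separation were mixed. Of 7 tested, 1 was called higher and 3 were higher by adjusted p, and the median log2 fold change was 0.33. Ube2c, the ubiquitin-conjugating enzyme that starts chains for the complex, was at 88.1, 72.2, 79.4 and 68.8 CPM in BU, against 46.3, 45.6, 44.2 and 45.9 CPM in CTRL, and was 1.69-fold higher in BU (log2 fold change 0.75, SE 0.08, adjusted p = 1.58e-06). Its exons overlap those of Tnnc2 on the opposite strand over 22.8% of their bases. Cdc20, the mitotic activator of the complex, was at 37.1, 38.01, 37.6 and 35.2 CPM in BU, against 25.6, 28.2, 26.5 and 23.3 CPM in CTRL, so that every BU library exceeded every CTRL library, at less than 1.5-fold (log2 fold change 0.52, SE 0.08, adjusted p = 1.10e-04). Cdca3, which helps degrade the mitosis inhibitor Wee1, was higher by adjusted p (log2 fold change 0.34, SE 0.09, adjusted p = 0.00925). Ube2s, which extends the chains, and Cdca5 (sororin), which keeps cohesin on chromatin, did not pass, at log2 fold changes of 0.33 and 0.15 (adjusted p = 0.235 and 0.260).

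Neither separase nor its inhibitor passed the adjusted p. Espl1, the protease separase, was at 78.4, 88.3, 88.9 and 72.7 CPM in BU, against 90.3, 79.6, 86.7 and 79.2 CPM in CTRL, with overlapping groups (log2 fold change -0.03, SE 0.07, adjusted p = 0.805). Pttg1, the securin that holds separase in check, was at 17.04, 12.6, 11.96 and 13.00 CPM in BU, against 15.8, 18.2, 21.6 and 14.4 CPM in CTRL. BU 3, BU 4 and BU 5 were below all CTRL libraries and BU 2 was not, and the adjusted p was just over the threshold (log2 fold change -0.36, SE 0.14, adjusted p = 0.0555). Sgo1, listed as Sgol1 and not counted here, had 44.3 CPM in BU, against 38.1 CPM in CTRL (log2 fold change 0.22, SE 0.09, adjusted p = 0.0654).

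In the kinetochore and centromere group, no gene of 9 was called, 4 were higher by adjusted p, and the median log2 fold change was 0.22. All 9 had a positive sign. Nuf2, an arm of the Ndc80 complex that grips microtubules, was at 49.00, 40.5, 42.5 and 44.3 CPM in BU, against 31.1, 31.04, 29.3 and 29.5 CPM in CTRL, with every BU library above every CTRL library (log2 fold change 0.54, SE 0.08, adjusted p = 6.73e-05). Cenpa, the histone that marks centromeres, was at 89.99, 84.6, 89.3 and 86.3 CPM in BU, against 67.3, 73.8, 63.9 and 67.4 CPM in CTRL (log2 fold change 0.37, SE 0.06, adjusted p = 2.82e-04). Cenpe, the kinesin that carries chromosomes to the spindle equator, was at 389, 388, 347 and 447 CPM in BU, against 361, 324, 330.1 and 330.5 CPM in CTRL. Its groups overlapped, since BU 4 was below CTRL 1 (log2 fold change 0.22, SE 0.06, adjusted p = 0.0152).

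The other parts of the Ndc80 complex differed from Nuf2 in their values. Spc25, in the end of the complex that faces the centromere, was at 26.8, 16.95, 19.1 and 16.5 CPM in BU, against 22.9, 22.6, 15.4 and 15.02 CPM in CTRL, with wide and overlapping groups (log2 fold change 0.07, SE 0.16, adjusted p = 0.785, 95% interval -0.25 to 0.38). Ndc80 itself had a log2 fold change of 0.06 (adjusted p = 0.591), and Spc24 one of 0.29 (adjusted p = 0.168). Ndc80 has a stretch of at least 95% identity with 2700099C18Rik, which was lower in BU (log2 fold change -0.74, SE 0.08, adjusted p = 4.01e-06). Cenpi and Cenpk, of the inner kinetochore, had 0.24 and 0.18 (adjusted p = 0.0481 and 0.138), and Cenpf, a large outer kinetochore protein, had 0.09 (adjusted p = 0.226).

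The spindle checkpoint had the lowest median of the 8 role groups, a log2 fold change of 0.09 over 5 genes. Bub1, the kinase that recruits the other checkpoint proteins, was at 169, 166, 178 and 181 CPM in BU, against 129, 136, 136 and 141 CPM in CTRL, without overlap and at 1.28-fold (log2 fold change 0.35, SE 0.05, adjusted p = 9.29e-05). Ttk (Mps1), the kinase that starts the checkpoint signal, was at 98.2, 95.6, 103 and 93.2 CPM in BU, against 80.5, 90.7, 87.8 and 85.8 CPM in CTRL, where the lowest BU library lay above the highest CTRL library by a small margin (log2 fold change 0.18, SE 0.06, adjusted p = 0.0338). Bub1b (BubR1), a part of the inhibitory complex, did not pass (log2 fold change 0.09, SE 0.06, adjusted p = 0.248).

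Bub3, the adaptor on which Bub1 and BubR1 sit, was at 59.7, 46.7, 48.3 and 45.3 CPM in BU, against 51.2, 63.04, 65.9 and 62.9 CPM in CTRL. BU 2 lay within the CTRL range while the other 3 BU libraries were below it, and the gene was lower by adjusted p but not by the fold threshold (log2 fold change -0.29, SE 0.09, adjusted p = 0.0263). Mad2l1 (Mad2), which binds Cdc20 in the inhibitory complex, was at 83.7, 46.4, 65.7 and 72.4 CPM in BU, against 67.3, 64.2, 70.1 and 74.4 CPM in CTRL. BU 3 and BU 2 gave the lowest and the highest of the 8 values, and the group means did not differ beyond that spread (log2 fold change -0.10, SE 0.13, adjusted p = 0.590, 95% interval -0.34 to 0.15).

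Condensin, the ring complex that compacts mitotic chromosomes, had no call among 5 genes, 3 higher by adjusted p and a median log2 fold change of 0.20. Smc4, one of its ATPase subunits, was at 332, 274, 242 and 294 CPM in BU, against 236, 212, 199.8 and 195 CPM in CTRL, where the lowest BU library lay just above the highest CTRL library (log2 fold change 0.43, SE 0.08, adjusted p = 5.71e-04). Smc2, the partner ATPase, did not pass (log2 fold change 0.09, SE 0.07, adjusted p = 0.362). Ncaph, the kleisin that closes the condensin I ring, was at 89.6, 84.9, 73.7 and 84.5 CPM in BU, against 68.3, 59.3, 64.6 and 65.7 CPM in CTRL (log2 fold change 0.36, SE 0.07, adjusted p = 9.16e-04). Ncapd2, a scaffold subunit of condensin I, was higher by adjusted p at 1.15-fold (log2 fold change 0.20, SE 0.06, adjusted p = 0.0204). Ncapg, the other scaffold subunit, was at 75.8, 67.6, 63.6 and 62.3 CPM in BU, against 68.8, 69.95, 70.4 and 72.6 CPM in CTRL, and the groups overlapped (log2 fold change -0.07, SE 0.07, adjusted p = 0.476). Its exons overlap Lcorl on the opposite strand over 13.4% of their bases.

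**Figure D3:**
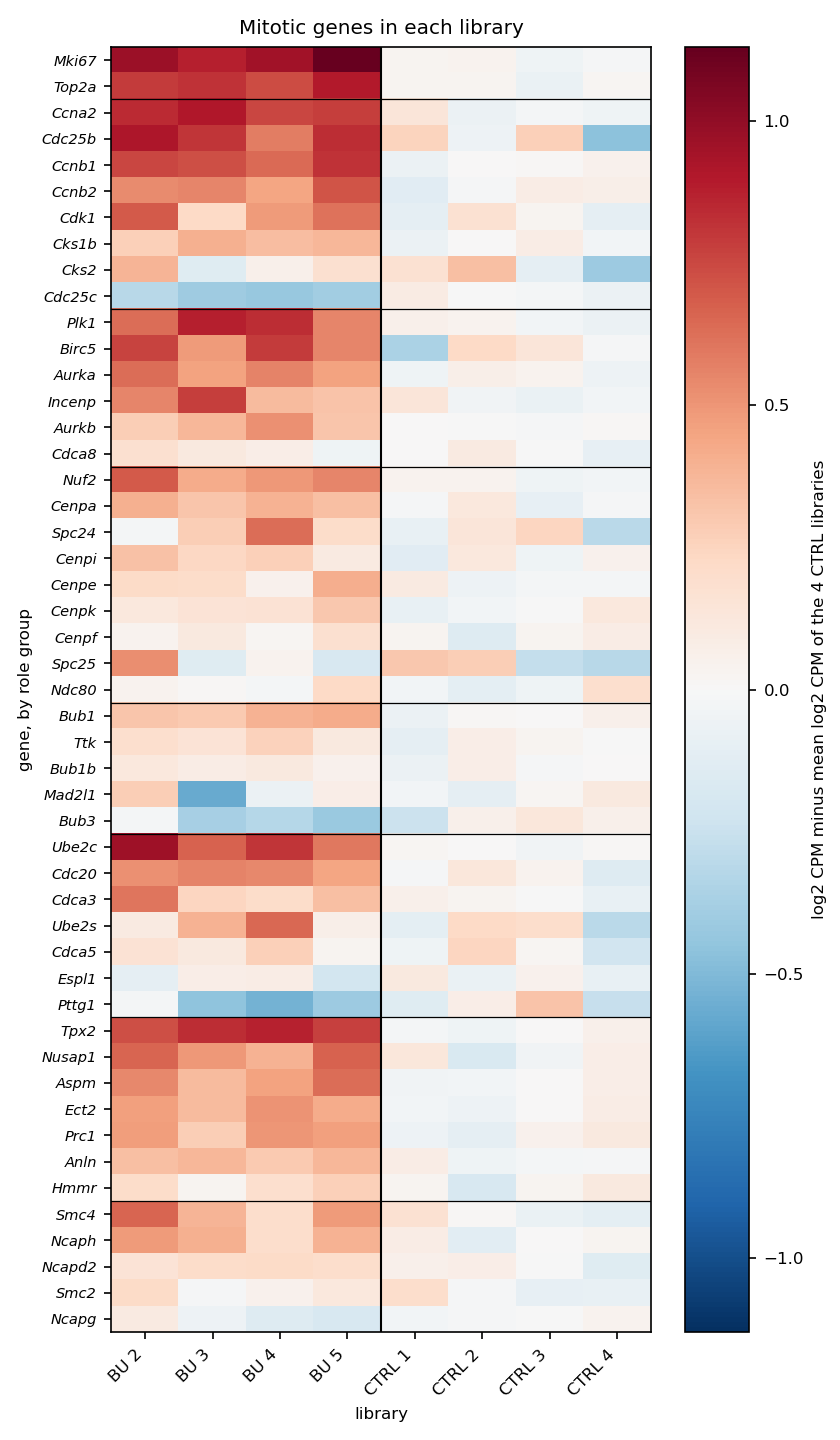
Log2 CPM of each of the 49 genes minus its mean over the 4 CTRL libraries (colour), with libraries across the page, BU left of CTRL, and genes down the page by role group. The median over genes was 0.38, 0.30, 0.34 and 0.34 in BU 2, BU 3, BU 4 and BU 5, and between -0.01 and 0.01 in the CTRL libraries.

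The difference was similar in the 4 BU libraries. The median over the 49 genes of the log2 CPM minus the CTRL mean was 0.38 in BU 2, 0.30 in BU 3, 0.34 in BU 4 and 0.34 in BU 5. BU 2 was the highest library of its group for 20 genes and BU 3 for 5. The median coefficient of variation was 7.59% among BU and 6.26% among CTRL libraries. Without BU 3 and BU 5, 12 genes were called higher, now with Cdk1, Aurka and Nuf2 at log2 fold changes of 0.59, 0.60 and 0.59.

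Whether related genes changed by different amounts was asked for 10 pairs, from the ratio of their counts within each library, which does not depend on scaling. An exact two-sided permutation test over the 70 ways to divide the 8 libraries can give no p below 0.0286, and with Benjamini-Hochberg adjustment over the 10 pairs no pair passed. In 4 pairs the groups did not overlap, each with an exact p of 0.0286 (adjusted p = 0.0714 by permutation). That is the smallest p the test can give, so these 4 could not pass the adjustment whatever the size of their gap. The ratio of Cdc25b to Cdc25c was 0.217, 0.215, 0.187 and 0.217 in BU, against 0.104, 0.0897, 0.114 and 0.0705 in CTRL, the widest gap of the 10 (difference 1.17 on the log2 scale, SE 0.16). Bub1 to Bub3 was 2.83, 3.56, 3.68 and 4.01 in BU, against 2.52, 2.16, 2.06 and 2.24 in CTRL (difference 0.64 on the log2 scale, SE 0.12). Both ratios were higher in all BU libraries.

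The other 2 pairs without overlap differed little in size. The ratio of Ccnb1 to Ccnb2 was 1.22, 1.18, 1.200 and 1.13 in BU, against 1.09, 1.06, 0.997 and 1.04 in CTRL (difference 0.17 on the log2 scale, SE 0.04), and that of Mki67 to Top2a was 2.01, 1.85, 2.05 and 2.09 in BU, against 1.78, 1.78, 1.81 and 1.73 in CTRL (difference 0.17 on the log2 scale, SE 0.04). In the remaining 6 pairs the groups overlapped, with adjusted p of 0.171 to 0.371 by the same permutation test. Their differences on the log2 scale were 0.08 with SE 0.08 for Ccna2 to Ccnb1, 0.15 with SE 0.08 for Aurka to Aurkb, -0.23 with SE 0.22 for Cks2 to Cks1b, -0.32 with SE 0.20 for Pttg1 to Espl1, -0.16 with SE 0.10 for Ncapg to Smc2 and 0.45 with SE 0.21 for Ube2c to Ube2s.

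**Figure D4:**
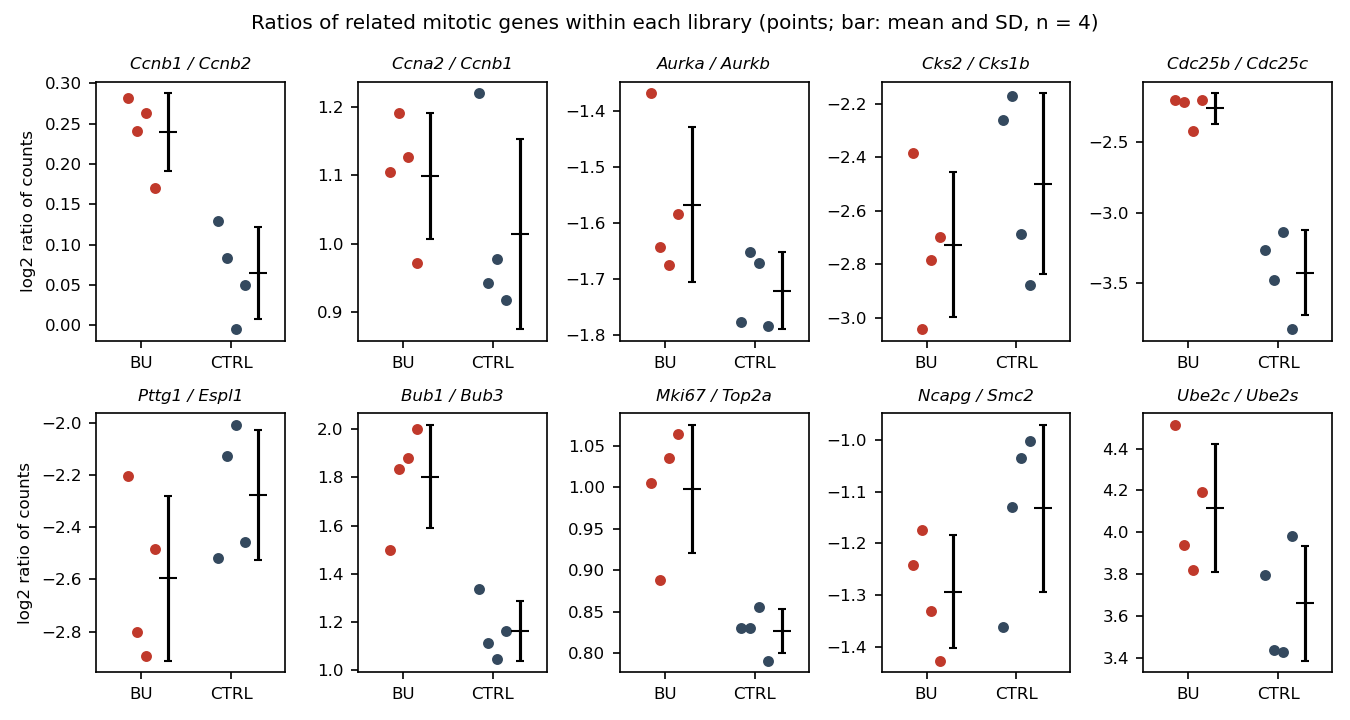
Log2 ratio of counts of 10 pairs of related mitotic genes in each library (points), with BU left of CTRL and the mean and SD of 4 libraries beside the points. The y axes differ between panels and do not start at 0. The groups are apart for Ccnb1 to Ccnb2, Cdc25b to Cdc25c, Bub1 to Bub3 and Mki67 to Top2a.

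Mitotic genes outside the list had a lower median fold change. Of 93 genes in 6 lists, 91 were in the table under the symbols listed, with a median log2 fold change of 0.07. By limma-voom 9 were called higher (8 by edgeR and 10 by DESeq2), and 0 lower by any of these tools. The 9 are 9.89% of the 91, against 6.8% of all genes. By adjusted p alone, 31 were higher (34.1%) and 9 lower, against 15.2% and 16.9% of all genes. At an unadjusted p under 0.05, 34 were higher and 10 lower, with no share over all genes computed. Sgol2a, a cohesion protector that the table lists as Sgo2a, was left uncounted and had 57.1 CPM in BU, against 50.03 CPM in CTRL (log2 fold change 0.18, SE 0.07, adjusted p = 0.0401). Spindle and cytokinesis genes gave 4 of the 9, out of 15 (26.7%). Of these 4, Ckap2l, a spindle pole protein, had 49.4 CPM in BU, against 26.6 CPM in CTRL (log2 fold change 0.89, SE 0.09, adjusted p = 7.05e-07). Gtse1, which stabilises microtubules, and Psrc1, a spindle protein of low abundance, were also among them (log2 fold change 0.67, SE 0.09, adjusted p = 1.86e-05 for Gtse1 and log2 fold change 1.32, SE 0.20, adjusted p = 8.88e-05 for Psrc1).

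Of 7 other checkpoint genes, 2 were called higher (28.6%). Kntc1, of the complex that brings dynein to kinetochores, was at 144 CPM in BU, against 95.4 CPM in CTRL (log2 fold change 0.60, SE 0.06, adjusted p = 1.76e-06). Mad2l2, a Mad2 relative that also acts in DNA repair, had 10.7 CPM in BU, against 6.24 CPM in CTRL (log2 fold change 0.78, SE 0.20, adjusted p = 0.00607). Cenpl and Cenpm were called among 26 other kinetochore and centromere genes (log2 fold change 0.64 and 0.59). Melk was called among 15 kinases, phosphatases and their regulators in mitotic entry and exit (log2 fold change 0.64, SE 0.09, adjusted p = 2.52e-05). These calls are 7.69% and 6.67% of the 2 lists, near the 6.8% of all genes called higher. None of 16 genes of the anaphase-promoting complex was called, a list that holds its inhibitor Fbxo5 and its activator Fzr1 beside the subunits. By adjusted p, Fbxo5, Anapc13 and Cdc27 were higher and 3 subunits lower, with a median log2 fold change of 0.03. None of 12 condensin and cohesin genes was called either, although Ncapg2, a condensin II subunit, lay just under the fold threshold (log2 fold change 0.58, SE 0.06, adjusted p = 1.38e-06) and DESeq2 called 1 of the 12. Of 19 replication genes, 8 were called higher (42.1%, against 6.8% of all genes), with a median log2 fold change of 0.55. Among the 8, Rrm2, which makes deoxynucleotides, had 40.2 CPM in BU, against 16.5 CPM in CTRL (log2 fold change 1.29, SE 0.09, adjusted p = 2.58e-08).

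**Figure D5:**
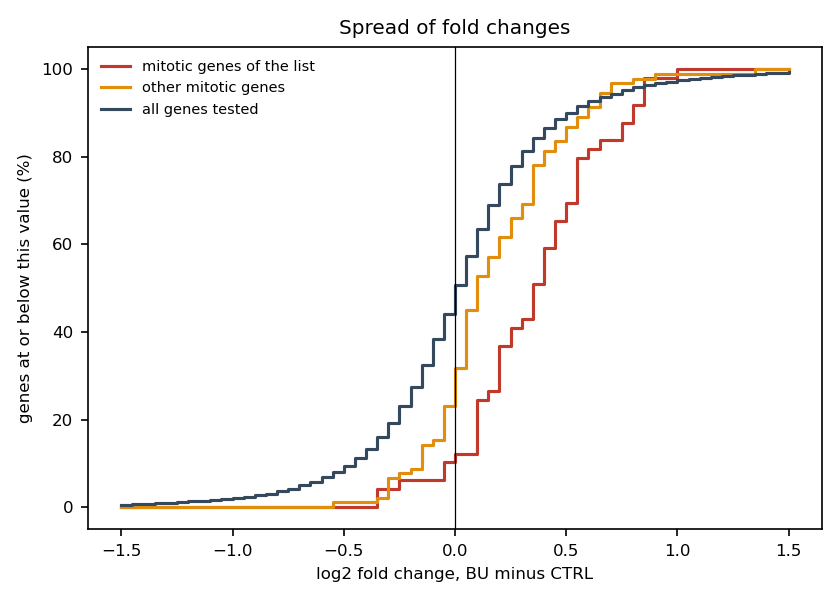
Share of genes at or below each log2 fold change of BU over CTRL (x axis), in steps of 0.05, for the 49 genes of the list, 91 other mitotic genes and all 14608 genes. Between about -0.2 and 0.6 the list lies furthest to the right and the other mitotic genes lie between it and all genes, and outside that range the curves cross.

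Markers of several cell types differed between the groups, and those of meiotic cells and spermatids overlapped in their sums. Of 8 markers of differentiating spermatogonia, 6 were called higher (75.0%, against 6.8% of all genes). Kit and Dmrtb1 led them (log2 fold change 2.09, SE 0.22, adjusted p = 1.88e-06 for Dmrtb1), and Sohlh1 was called lower (log2 fold change -0.70, SE 0.11, adjusted p = 1.04e-04). The summed level of the 8 was 586 to 635 CPM in BU and 354 to 412 CPM in CTRL. The list is not particular to differentiating cells, since the study also reports Stra8 in transitional A_undiff and Sohlh1 as progenitor-associated. Of 10 markers of undifferentiated spermatogonia, all detected, Zbtb16 and Foxo1 were called lower (log2 fold change -0.79 and -0.77) and none higher. By adjusted p alone 4 were lower and 3 higher, Gfra1, Itga6 and Etv5 (log2 fold change 0.54, 0.26 and 0.53), and the median log2 fold change was -0.05, with sums of 1068 to 1259 CPM in BU and 1339 to 1437 CPM in CTRL. No marker of 10 for meiotic spermatocytes was called higher and 2 were called lower, at 422 to 499.98 CPM in BU and 413 to 475 CPM in CTRL, and none of 8 spermatid markers was called, at 118 to 176 CPM in BU and 109 to 186 CPM in CTRL.

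All 5 immune markers found in the table were called higher, against 6.8% of all genes, at a summed 26.8 to 39.8 CPM in BU and 11.6 to 19.2 CPM in CTRL. The 5 others (Adgre1, Csf1r, H2-Ab1, Lyz2 and C1qa) were not in the count table. Each gene of that table reached a CPM of 1 in at least 4 libraries, as many as 1 group holds. A scarce marker could thus enter through its BU values alone, which limits what the 5 calls show. Of 6 Sertoli cell markers, 2 were called higher (33.3%, against 6.8% of all genes), at 40.1 to 55.8 CPM in BU and 34.5 to 45.7 CPM in CTRL. Amh and Rhox5 were not in the table. Among 6 other somatic markers, Kdr and Pdgfra were called higher (33.3%, against 6.8% of all genes) and Col1a1 lower, at 60.5 to 67.6 CPM in BU and 70.6 to 76.3 CPM in CTRL. Cyp17a1, Insl3, Hsd3b1 and Acta2 were not in the table either. The part of any of these cell types in the values of the mitotic genes was not tested.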

How the data were processed

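The authors sequenced SPIA-amplified cDNA of sorted A_undiff as 100 bp paired-end reads and ran the RNAsik pipeline. According to the submitters' processing notes, featureCounts, limma and edgeR were used with the GRCm38 build. The aligner, gene annotation and strandedness of counting are not given in the sources used here. Amplification of RNA from sorted cells can alter relative yields between transcripts. The deposited table holds raw counts per gene, not normalised, in which each of the 14608 genes reached a CPM of 1 in at least 4 libraries. Total counts were 17181963 to 24243985 per library, and among the 49 listed genes the lowest count in any library was 44. The authors' own fold changes, p-values and mean expression were not used, nor were 8 per-sample CPM columns. CTRL columns were matched to samples by name, and BU columns to the group alone.

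Counts were scaled by TMM, filtered with filterByExpr (0 genes removed) and fitted with limma-voom on group alone (R 4.3.3, limma 3.58.1, edgeR 4.0.16) (limma-voom being the study's method), and p-values were Benjamini-Hochberg adjusted over all genes. The test was checked on simulated data. RPKM used the deposited gene lengths. Ratios of gene pairs were compared by exact permutation. Overlaps and copies came from GENCODE M21, promoters from RefSeq (GRCm38.p6). The members, pairs and lists were chosen with earlier results of these data known. Per-library values are given for the members the study names for these cells, for the 2 members of each role group with the smallest adjusted p and the 1 with the largest, and for all with a negative log2 fold change. Of each other list, at most 3 called genes with the smallest adjusted p are named. Kit, Cdh1, Itga6, Dmrtb1, Sohlh1, Ncapg2, Sgo1, Sgo2a, Fbxo5, Fzr1, Anapc13, Cdc27, Gfra1, Etv5 and the pseudogenes are named beside the results they bear on. Alternatives included DESeq2 1.42.0, the quasi-likelihood test of edgeR, a treat test in limma, other scalings, filters and thresholds, quality weights, and fits without single libraries, without BU 3 and BU 5 or without mitochondrial genes.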

Additional observations from a re-analysis of the deposited data

Results flagged for a closer look

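Each group of 4 libraries was checked for a library far from the other 3, in 118 sets of CPM values or count ratios, and 2 were found, where chance alone gives about 1 in 20. Top2a had 261 CPM in CTRL 3, below the other CTRL libraries, which lay close together at 279.7 to 282 CPM. The ratio of Cdc25b to Cdc25c counts was 0.187 in BU 4, below the other BU libraries at 0.215 to 0.217 and above every CTRL library.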

How the results depend on the processing

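Under up to 18 alternative fits, 871 of 879 log2 fold changes of single genes kept their side of the thresholds, 7 passed and 1 no longer passed. No gene called before or under an alternative changed its sign. Changes of sign in genes called in neither were not counted. The 43 genes of the list that kept their side of the thresholds under all of them include 8 of the 9 called. Cdc25b, Cks2 and Ube2s were not among the genes left by the filter at 10 CPM. The median log2 fold change of the list was 0.33 to 0.37 throughout, and the largest shift of the median of all genes, -0.02, came with scaling by totals. Requiring limma's treat test of a fold above 1.5 left 3 members higher (Mki67, Top2a and Ccna2), 171 genes higher and 204 lower over the table, and 1 other mitotic gene higher (Psrc1). With a fold over 2, 0 members, 352 genes higher and 312 lower, and 1 other mitotic gene (Psrc1) passed. By adjusted p alone, 31 members were higher and 2 lower, 2222 genes were higher and 2471 lower, and 31 other mitotic genes were higher and 9 lower. The 10 CPM filter gave 360 genes higher and 432 lower. Cenpw, a centromere protein, became the 1 other mitotic gene called lower with quality weights and with scaling by totals, and 0 to 1 were called lower when single libraries were left out. Leaving out single libraries gave 9 to 11 members called higher. The ratios of gene pairs kept their direction in all 100 values from the alternatives. None passed the test, whose smallest possible p left little room to pass after adjustment. No paired analysis was possible because the BU columns are numbered 2 to 5 and carry no replicate number of the labels. Genes at a few CPM, such as Cdc25b and Ube2s, had the widest intervals.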
